A study of Mus musculus with 5 samples.

Results

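The mitochondrial carrier genes are the genes of the solute carrier family SLC25. They were taken here as every autosomal protein-coding gene of the RefSeq table for GRCm38.p6 (the assembly that mm10 names) whose symbol is Slc25a followed by digits only. There were 43 such genes among 20665 autosomal protein-coding genes. The transcription factor KLF5, a Krüppel-like protein with zinc fingers, was located on the genome by chromatin immunoprecipitation and sequencing (ChIP-seq) through a V5 epitope tag. The tested cells were wild-type mouse embryonic stem (ES) cells from C57B6/J mice that overexpressed V5-KLF5, precipitated with an anti-V5 antibody. The controls were a normal mouse IgG precipitate of the same cells and an anti-V5 precipitate of wild-type ES-D3 cells, a mouse ES line in long use, which carry no tagged protein. Input DNA of the tagged and of the untagged cells was sequenced as well, and each group was 1 library. The labels call the tagged protein overexpressed and do not name the promoter that drove it. Peak lists hold no RNA levels, so the cell type could not be checked against expressed markers.

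Mitochondrial carriers are membrane proteins that are made in the cytosol and mostly sit in the inner mitochondrial membrane. Each moves particular substrates across it, such as ADP and ATP, phosphate, citrate, amino acids, cofactors or iron, and so ties the reactions of the matrix to those of the cytosol. KLF and SP factors bind GC-rich promoter elements known as GC boxes and CACCC boxes.

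The promoters below are the windows that the account of single genes turns on. The RefSeq promoter set used here gives 250 bases before to 50 bases after each start (GRCm38.p6). In it 32 of the 43 genes had an entry, 39 windows in all. Printed first are 4 carrier promoters whose window holds a V5-KLF5 summit, the base with the highest signal of a peak. Then follow a pair from carrier genes with no summit within 10 kb. Capitals mark matches, on either strand, to the GC box GGGCGG, the CACCC box CACCC or the KLF consensus CCNCNCCC. The last of these can contain either of the others, and overlapping matches run together.
Slc25a20, chr9:108661886-108662185, plus strand: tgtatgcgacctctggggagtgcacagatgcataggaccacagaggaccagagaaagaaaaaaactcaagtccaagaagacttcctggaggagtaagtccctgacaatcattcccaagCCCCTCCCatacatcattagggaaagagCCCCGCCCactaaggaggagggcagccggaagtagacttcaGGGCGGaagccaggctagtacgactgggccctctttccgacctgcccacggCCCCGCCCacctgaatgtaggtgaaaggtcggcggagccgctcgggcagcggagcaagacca
Slc25a1, chr16:17928170-17928469, minus strand: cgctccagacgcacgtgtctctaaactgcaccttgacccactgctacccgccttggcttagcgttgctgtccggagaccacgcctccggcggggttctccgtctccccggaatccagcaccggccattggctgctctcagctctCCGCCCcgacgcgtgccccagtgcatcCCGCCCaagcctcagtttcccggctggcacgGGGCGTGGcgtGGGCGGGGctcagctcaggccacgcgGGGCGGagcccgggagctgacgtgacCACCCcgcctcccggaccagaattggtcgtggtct
Slc25a16, chr10:62920383-62920682, plus strand: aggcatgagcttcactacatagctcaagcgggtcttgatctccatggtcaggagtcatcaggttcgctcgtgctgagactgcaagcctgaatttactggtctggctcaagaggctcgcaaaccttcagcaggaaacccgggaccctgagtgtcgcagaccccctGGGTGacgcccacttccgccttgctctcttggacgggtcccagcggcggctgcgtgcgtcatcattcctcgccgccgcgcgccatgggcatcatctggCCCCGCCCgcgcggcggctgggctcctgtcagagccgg
Slc25a4, chr8:46211013-46211312, minus strand: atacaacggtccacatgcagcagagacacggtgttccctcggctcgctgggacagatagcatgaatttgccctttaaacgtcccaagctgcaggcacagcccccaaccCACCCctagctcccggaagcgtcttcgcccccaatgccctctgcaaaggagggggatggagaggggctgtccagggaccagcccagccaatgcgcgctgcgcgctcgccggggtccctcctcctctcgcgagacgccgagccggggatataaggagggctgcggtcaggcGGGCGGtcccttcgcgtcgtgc
Slc25a18, chr6:120773518-120773817, plus strand: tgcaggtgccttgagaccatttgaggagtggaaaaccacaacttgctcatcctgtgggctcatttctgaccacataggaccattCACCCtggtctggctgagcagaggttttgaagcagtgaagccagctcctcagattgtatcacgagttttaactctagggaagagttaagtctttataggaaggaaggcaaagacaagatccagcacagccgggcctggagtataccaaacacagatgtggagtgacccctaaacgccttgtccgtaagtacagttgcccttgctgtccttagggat
Slc25a47, chr12:108850879-108851178, plus strand: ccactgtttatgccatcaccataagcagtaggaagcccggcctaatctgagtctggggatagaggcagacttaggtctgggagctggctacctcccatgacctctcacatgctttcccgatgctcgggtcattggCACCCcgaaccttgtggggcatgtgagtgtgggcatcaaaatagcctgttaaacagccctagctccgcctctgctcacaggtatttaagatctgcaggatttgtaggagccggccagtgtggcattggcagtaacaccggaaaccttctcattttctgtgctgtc

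V5-KLF5 peaks stood at most mitochondrial carrier genes, close to their ends. Of the 43 genes, 35 had a summit within 1 kb of either end, which is 81.4% (95% exact Clopper-Pearson interval 66.6 to 91.6), against 52.5% of all autosomal protein-coding genes. Within 10 kb it was 38 of 43, which is 88.4% (interval 74.9 to 96.1), against 70.7% of all autosomal protein-coding genes. In the IgG precipitate 0 of the 43 genes had a summit within 10 kb, and likewise 0 in the V5 precipitate of untagged cells. The control lists are nearly empty throughout the genome, with 3 and 0 peaks, against 45378 peaks in the V5-KLF5 list. The 3 libraries kept 23.2 M (V5-KLF5), 24.5 M (IgG) and 21.8 M (untagged) tags after duplicates were removed, so their depth was similar. The intervals treat genes as draws and cover counting error only, because no group has a replicate.

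In strength the summits at carrier genes lay near those of other genes. The strongest summit within 10 kb had a median fold enrichment over input of 7.15 across the 38 carrier genes that had one, against 7.32 across all such autosomal genes. Within 1 kb these medians were 6.59 and 6.13. A summit with a fold enrichment of at least 10 lay within 10 kb of 9 carrier genes (20.9%), against 20.4% of all autosomal protein-coding genes. Within 1 kb there were 8 (18.6%), against 9.53% of all. No test was made of these shares, since the genes are members of 1 list in 1 library.

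**Figure D1:**
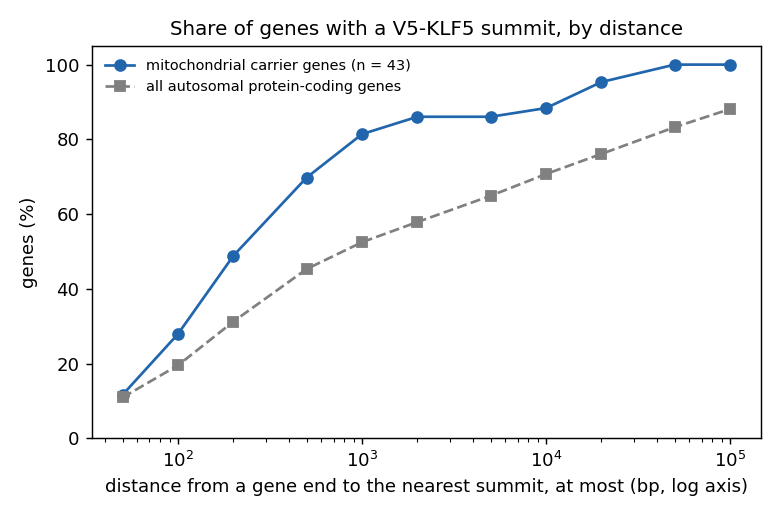
Percentage of genes (vertical axis) whose nearest V5-KLF5 summit lies at or below a given distance from either gene end (horizontal axis, bp, log scale), for the 43 mitochondrial carrier genes (circles, solid line) and all 20665 autosomal protein-coding genes (squares, dashed line). At 200 bp the shares are 48.8% and 31.2%, and at 50 kb 100% and 83.3%.

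The shares for all genes depend on which genes are counted. Odorant and vomeronasal receptor genes, which are in the table with the symbols Olfr and Vmn, are seldom expressed outside sensory neurons. Without them the share of all autosomal genes was 56.4% within 1 kb and 75.8% within 10 kb. A further 2 lists held mitochondrial transport genes outside the family. Of 24 other mitochondrial membrane transporter genes, 22 (91.7%) had a summit within 1 kb and 23 (95.8%) within 10 kb, with a median strongest fold enrichment of 9.26. Among them the uncoupling-protein gene Ucp2 had 13.2, the calcium uniporter regulator gene Micu2 had 16.6, and the pyruvate carrier gene Mpc1 had 10.2. Ucp3 had the same value as Ucp2 within 10 kb, but 5.54 within 1 kb. The lowest values among the genes with a summit were those of Micu3, Mcu and Letm1, with 3.90, 4.46 and 4.64. Ucp1, the uncoupling protein of brown fat, had no summit within 10 kb. Of 15 genes for the import of carrier proteins from the cytosol, 14 (93.3%) had a summit within 1 kb and all 15 within 10 kb, with a median of 6.21. Agk, which encodes a subunit of the TIM22 import complex, had the strongest at 26.6. All 3 sets of mitochondrial genes thus had shares above those of all autosomal genes, and differences between them were not tested.

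Around carrier genes there were 91 distinct summits within 10 kb, of 44760 autosomal V5-KLF5 peaks, and 43 of them lay within 1 kb. A single summit lay within 10 kb of 12 carrier genes, and 26 had 2 to 6. The median fold enrichment was 6.00 for summits within 1 kb and 4.77 for the 48 farther out, beside 5.60 for all autosomal summits within 1 kb of a protein-coding gene end. Among the 35 genes called within 1 kb, the nearest summit stood 10 to 676 bp from the end, with a median of 151 bp, the same as the 151 bp of all genes called. Slc25a46, at 676 bp, was the gene just inside the 1 kb window, and Slc25a45, at 1244 bp, was just outside. Slc25a54, at 6767 bp, was just inside the 10 kb window, and Slc25a21, at 12516 bp, just outside.

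Where the promoter set used gives the start site, more carrier genes had a summit at that end than at the other. Of 32 carrier genes with a promoter entry, 25 (78.1%, interval 60.0 to 90.7) had a summit within 1 kb of an annotated start, against 53.8% of all autosomal genes with an entry. At the other end 4 genes (12.5%) had a summit within 1 kb, against 8.23% of all. The nearest summit lay upstream of the start in 13 of the 25 genes and downstream in 12, at positions from -508 to 467 bp relative to it (negative upstream), with a median distance of 126 bp. It was within 200 bp of the start in 18. Slc25a22 and Slc25a38 had a summit at both ends, though those at the far ends were nearer to Cend1 and Rpsa, while Slc25a33 and Slc25a34 had one at the far end and none within 1 kb of the start. The other genes with an entry and no summit at the start were Slc25a18, Slc25a21, Slc25a45, Slc25a47 and Slc25a54. Genes for which no promoter entry was used include Slc25a2, Slc25a26, Slc25a27, Slc25a32, Slc25a35, Slc25a37, Slc25a41, Slc25a44, Slc25a46 and Slc25a51.

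**Figure D2:**
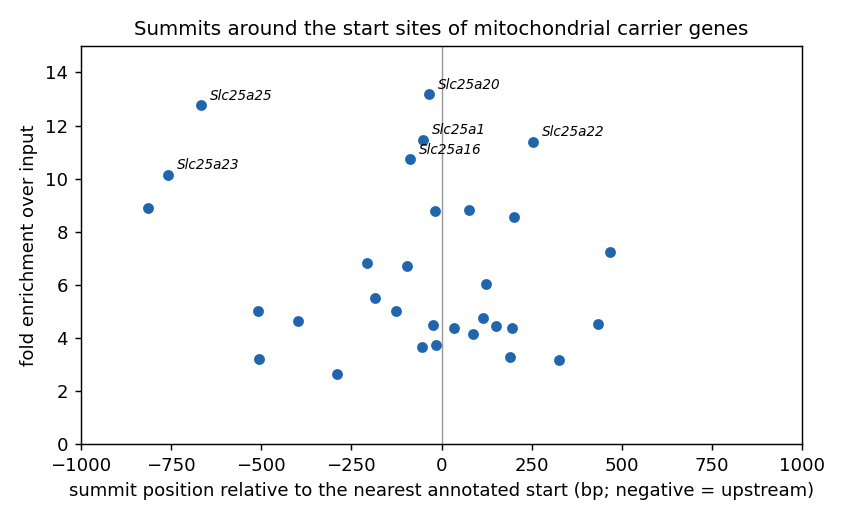
Position of each V5-KLF5 summit relative to the nearest annotated start of a carrier gene (horizontal axis, bp, negative upstream) against its fold enrichment over input (vertical axis), for summits within 1 kb of a start. Each point is 1 summit, and the genes at or above a fold enrichment of 10 are named, with Slc25a20, Slc25a1 and Slc25a16 less than 100 bp upstream of the start.

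Some carrier genes have a close neighbour, and a summit between them counts for both. Another protein-coding gene ended within 1 kb of an end of 13 carrier genes (30.2%), against 25.6% of all autosomal genes, and 12 of the 13 had a summit within 1 kb, against 74.7% of all genes with so close a neighbour. Of the 30 carrier genes without such a neighbour, 23 (76.7%) had a summit within 1 kb, against 44.8% of all genes without one. When a summit was counted only for the gene whose end was nearest, 34 of 43 carrier genes (79.1%) kept a summit within 1 kb, against 47.7% of all. Within 10 kb, 31 of the 91 summits (34.1%) were nearer to a gene that is not a carrier. The median number of other gene ends within 100 kb was 8.0 for carrier genes and 7.5 for all, and the median gene length 20666 bp and 17491 bp.

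Each fold enrichment given in the following for a gene is that of its strongest summit within 10 kb, unless another distance is stated. The counts for substrate groups are to be read beside 52.5% of all autosomal genes within 1 kb and 70.7% within 10 kb. The groups are small, and differences between them were not tested. The 8 genes with at least 10 within 1 kb were Slc25a1, Slc25a16, Slc25a20, Slc25a22, Slc25a23, Slc25a25, Slc25a35 and Slc25a39, and the pileups at these summits, the height of the extended tags, were 41 to 61.

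Carriers of ADP, ATP and phosphate had a summit within 10 kb at all 8 genes and within 1 kb at 7, with a median strongest fold enrichment of 8.66. Slc25a25, an ATP-Mg and phosphate carrier, had the highest of them, 12.8 at a summit 667 bp upstream of its outermost start (chromosome 2, peak at 32451852 to 32452628). That gene has 3 annotated starts, and weaker summits stood 24 bp before the outermost and 53 bp before the innermost, with 4.49 and 3.66. Its relative Slc25a23 had 10.1 at 711 bp outside the gene, upstream of its start (chromosome 17, peak at 57059980 to 57060902). Slc25a4, the ADP/ATP carrier of muscle and heart, had 8.79 at 18 bp before its start on chromosome 8 (peak at 46210835 to 46211542), inside the promoter window printed above. The phosphate carrier gene Slc25a3 had 9.89 at a summit 7714 bp outside the gene (chromosome 10, peak at 91130741 to 91131991) and 6.83 at 128 bp outside it. The weakest of this group was Slc25a31, the ADP/ATP carrier of the testis, with 3.28. Slc25a24, another ATP-Mg and phosphate carrier, had 8.54 at 200 bp inside its start, and the same summit is the strongest within 10 kb of its neighbour Slc25a54, which had none within 1 kb. The calcium-independent relative Slc25a41, next to Slc25a23, had 3.64.

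Carriers of other nucleotides and cofactors had a summit within 10 kb at all 9 genes and within 1 kb at 8. Slc25a16, linked to coenzyme A in mitochondria, had 10.7 at 88 bp before its start (chromosome 10, peak at 62920340 to 62920767), and the summit stood 2 bp from a motif match in the window printed above. The NAD+ carrier gene Slc25a51 had 9.26 at 48 bp outside the gene. The pyrimidine nucleotide carrier genes differed in layout. Slc25a36 had 9.81 at 3518 bp outside the gene (chromosome 9, peak at 97113608 to 97114933) and only 2.66 at 290 bp before its start, the lowest fold enrichment of the 91 summits. The 2.66 summit stood on an input background of 6.90, above 6.13, the 95th percentile under autosomal peaks. How far this background set the value was not tested. Slc25a33 had 6 summits within 10 kb of an end, the most of any carrier gene at that distance. It had none within 1 kb of its start. Its strongest summit had 7.32 at 2199 bp inside the far end, while those 4443 and 5940 bp beyond that end were nearer to Tmem201. Slc25a32 (folate), Slc25a42 (coenzyme A), Slc25a17 (the peroxisomal cofactor carrier) and Slc25a26 (S-adenosylmethionine) had 6.00, 5.497, 5.03 and 3.46.

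Among the carboxylate carriers, 3 of 4 genes had a summit within 1 kb, and the same number within 10 kb. The citrate carrier gene Slc25a1, which exports citrate for lipid synthesis, had 11.5 at 52 bp before its start on chromosome 16 (peak at 17927671 to 17928533), with another summit of 8.90 at 813 bp and a further one of 6.11 beyond the far end. The printed Slc25a1 window holds 4 GC boxes, 1 CACCC box and 2 KLF consensus matches. Slc25a11, the oxoglutarate and malate carrier gene, had the strongest summit within 10 kb of any carrier gene, 21.7 (chromosome 11, peak at 70653526 to 70656311), but it stood 8279 bp outside Slc25a11 and 989 bp from Pfn1, the profilin gene. A summit inside Slc25a11, 76 bp after its annotated start, had 8.82, but its nearest gene end was that of Rnf167, at 267 bp against 568 bp for Slc25a11. Slc25a10, the dicarboxylate carrier gene, had 4.46 at 151 bp after its start, and 9.72 came from a summit 82 bp from an end of Mrpl12. Slc25a21, the oxoadipate carrier gene, had none within 10 kb.

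Carriers of amino acids and carnitine had a summit within 1 kb at 8 of 10 genes and within 10 kb at the same 8, with a median of 5.63. Slc25a20, which carries acylcarnitines into the matrix for fatty acid oxidation, had the highest fold enrichment within 1 kb of any carrier gene, 13.2 with a pileup of 53 extended tags (chromosome 9, peak at 108661856 to 108662330). Its summit stood 36 bp before the start, and the printed window holds 3 GC boxes and 3 KLF consensus matches. The glutamate carrier gene Slc25a22 had 11.4 at 254 bp after its outermost start (chromosome 7, peak at 141437233 to 141437848), and 5 summits within 10 kb, of which 3 lay nearer to Pidd1 and 1 nearer to Cend1. The other glutamate carrier gene, Slc25a18, had none, and its nearest summit was 30161 bp away. The glycine carrier gene Slc25a38 had 7.22, and Slc25a29, which carries basic amino acids, had 6.71. The aspartate-glutamate carrier genes Slc25a12 and Slc25a13 had 4.54 and 4.32, the ornithine carrier gene Slc25a15 had 4.39, and Slc25a44 (branched-chain amino acids) had 4.14. Slc25a2, the other ornithine carrier gene, had none.

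The iron and glutathione carriers had a summit within 1 kb at 3 of 4 genes. Slc25a39, a glutathione carrier gene, had 10.2 at 98 bp inside the gene end (chromosome 11, peak at 102408265 to 102408777), and its relative Slc25a40 had 6.47 at 1640 bp and 4.74 at 222 bp inside. The 6.47 summit stood on an input background of 8.43, the highest under the 91 summits and above 6.13, the 95th percentile under autosomal peaks. The part of this background in the value was not tested. The mitoferrin genes, for iron import, differed: Slc25a28, the widely expressed form, had 5.03 at 383 bp outside the gene, while the summit nearest to Slc25a37, the form of red blood cell precursors, was 37491 bp from an end. The uncoupling-protein relatives Slc25a30 and Slc25a27 had 7.08 and 5.89, and each had a summit within 1 kb.

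Of the 6 carrier genes described by symbol alone, 4 had a summit within 1 kb and 5 within 10 kb. Slc25a35 had 11.7 at 328 bp to the left of the gene (chromosome 11, peak at 68967385 to 68968023) and 4.11 at 783 bp beyond the right end. Slc25a34 had 7.81 at 55 bp beyond its far end, and an end of Tmem82 lay 186 bp from an end of Slc25a34. Slc25a46, whose product acts at the outer membrane in mitochondrial shape, had 6.97. Slc25a48 had 4.78, and Slc25a45 had 6.35 at a summit nearer to Frmd8. Slc25a47, a carrier gene of the liver, had none, and its nearest summit, 13860 bp away, is the one at the start of its neighbour Slc25a29.

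**Figure D3:**
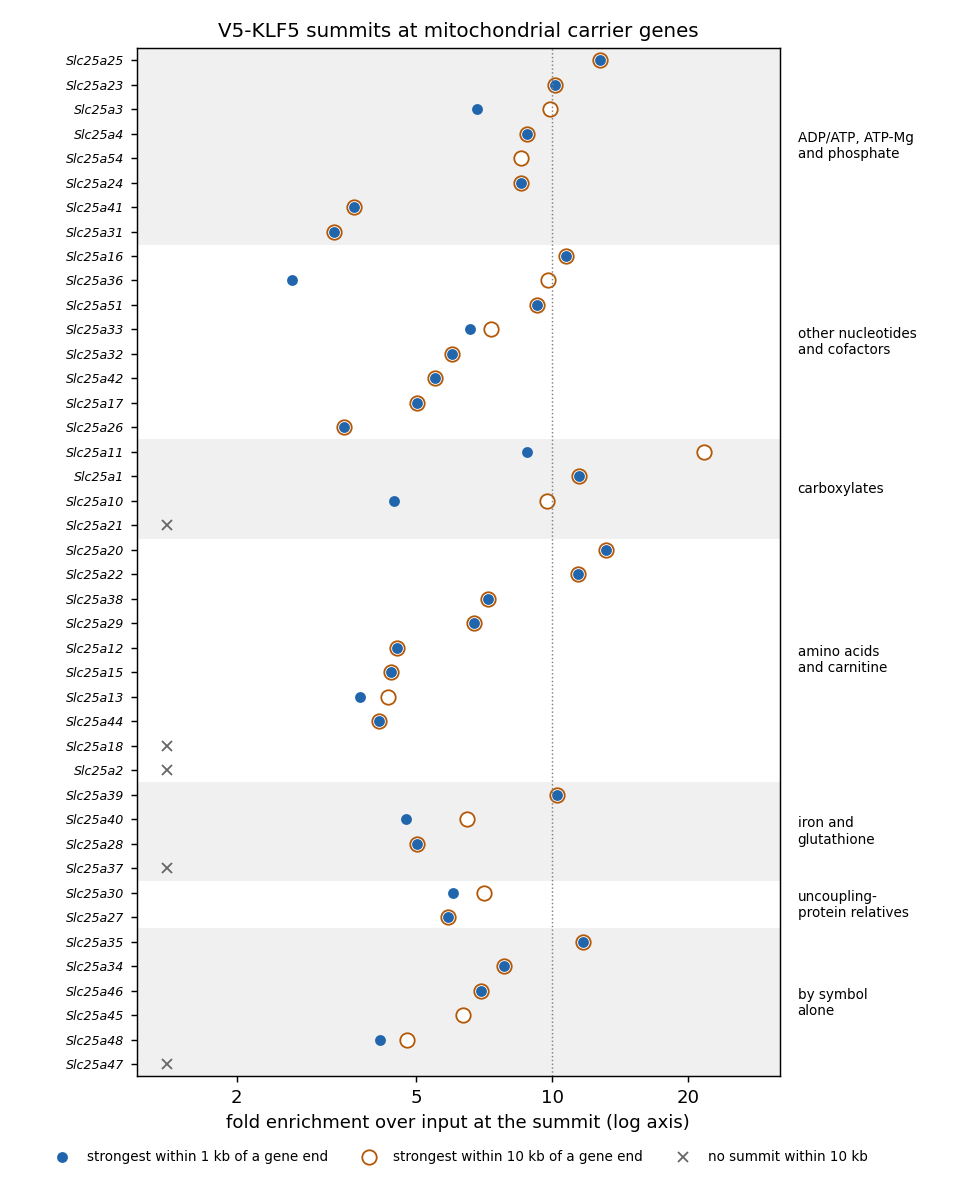
Fold enrichment over input (horizontal axis, log scale) of the strongest V5-KLF5 summit within 1 kb (filled) and within 10 kb (open) of either end of 42 of the 43 carrier genes, grouped by substrate as named at the right. Crosses at the left mark the 5 genes with no summit within 10 kb and stand for no value, and the dotted line is at 10.

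The 5 carrier genes without a summit within 10 kb were Slc25a2, Slc25a18, Slc25a21, Slc25a37 and Slc25a47. Their nearest summits stood at 12516 to 37491 bp, so all 43 carrier genes had a summit within 50 kb, against 83.3% of all autosomal genes. Some carrier genes held summits deep inside. Of the 22 carrier genes longer than 20 kb, 6 (27.3%) had a summit more than 10 kb from both ends, 16 summits in all, against 38.4% of the 9575 autosomal genes of that length. The median length of these genes was 33259 bp for carriers and 49293 bp for all. Slc25a13, at 176087 bp, held 7 of them, with fold enrichments of 4.25 to 6.75, all higher than the 3.75 of the summit 15 bp before its start. Slc25a12, its relative, held 5, the strongest with 9.05 at 31402 bp from the start end (chromosome 2, peak at 71336163 to 71336556), against 4.54 near its start. Slc25a21, at 484839 bp the longest carrier gene, held 1, with 6.52, at 98342 bp from the start end. Slc25a17, Slc25a27 and Slc25a30 held 1 each, with 4.39, 4.97 and 4.15.

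**Figure D4:**
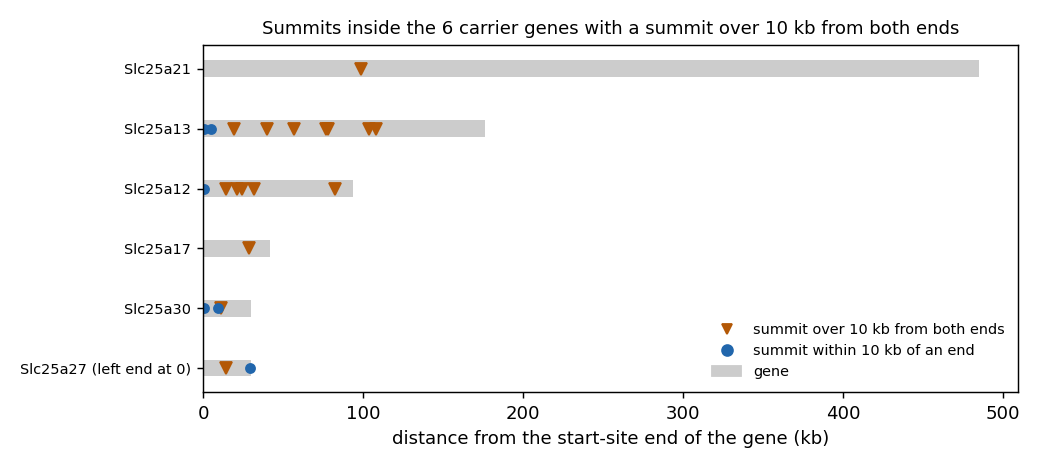
V5-KLF5 summits inside the 6 carrier genes that have a summit more than 10 kb from both ends. The horizontal axis is the distance from the start-site end of the gene in kb (from the left end for Slc25a27), grey bars are the genes to scale, triangles are the 16 summits over 10 kb from both ends, and circles are summits inside the gene within 10 kb of an end.

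GC boxes and KLF consensus matches were frequent in carrier promoters with a summit. Of 28 carrier promoter windows with a summit within 1 kb of the start, 26 (92.9%) held GGGCGG, against 5 of 11 (45.5%) of those without. CCNCNCCC was in 25 of 28 (89.3%), against 4 of 11 (36.4%). CACCC was in 17 of 28 (60.7%), against 6 of 11 (54.5%). In all 39 carrier windows the shares were 79.5%, 74.4% and 59.0% for the 3 motifs in that order. They were 35.7%, 49.5% and 57.5% in all 32851 windows of the promoter set used. That set is not limited to autosomal protein-coding genes, which have 10444 windows with a summit within 1 kb and 9641 without. It is therefore not a like set for the carriers. The windows also differed in base composition, with a median GC content of 61.8% in carrier windows with a summit and 53.3% in those without. Across all autosomal protein-coding promoters the same split gave 71.9% and 20.1% for GGGCGG, 76.0% and 37.1% for CCNCNCCC, and a GC content of 62.7% and 49.3%. The part of GC content in these shares was not tested, and several windows of 1 gene overlap or share a summit.

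A summit lay inside 12 of the 39 carrier windows, from 11 genes, and each of the 12 held at least 1 motif match, as did 96.5% of the 5470 autosomal protein-coding windows with a summit inside. In 6 of the 12 (50.0%), against 53.4% of those windows, a match stood within 20 bp of the summit, among them Slc25a1 at 4 bp and Slc25a16 at 2 bp, while the nearest match was 22 bp away in Slc25a20 and 46 bp in Slc25a4. The Slc25a18 and Slc25a47 windows, printed as examples without a summit, held 1 CACCC box each and no GC box or KLF consensus match. The outermost Slc25a21 window held no match to any of the 3, while its other window held 2 CACCC boxes and 1 KLF consensus match. Of the 11 carrier windows with no summit within 1 kb of the start, 9 (81.8%) held a match to some motif. The share was 64.7% in autosomal protein-coding windows without a summit at that distance. A match is a description of the letters and does not show binding.

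**Figure D5:**
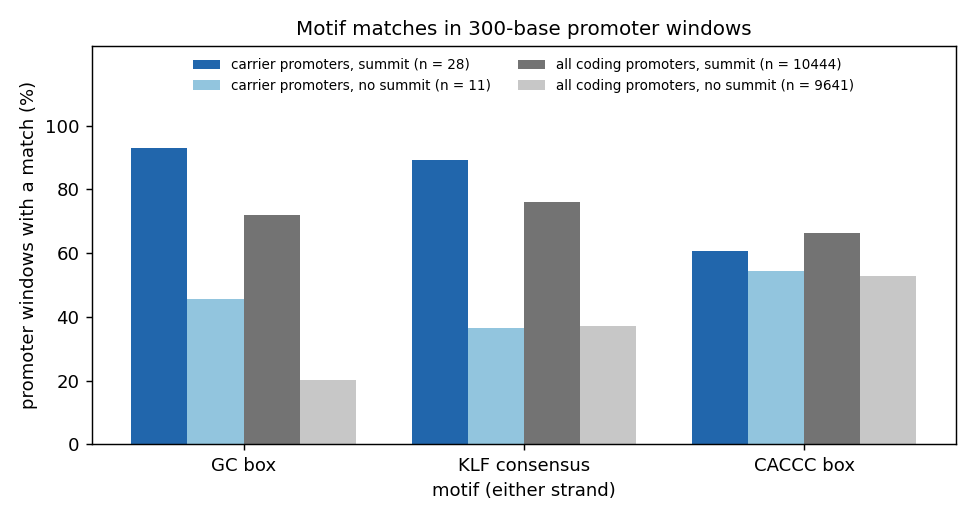
Percentage of 300-base promoter windows (vertical axis) with at least 1 match on either strand to each motif (horizontal axis), for carrier promoters with and without a V5-KLF5 summit within 1 kb of the start (dark and light blue) and for all autosomal protein-coding promoters split the same way (dark and light grey). For the GC box the bars stand at 92.9%, 45.5%, 71.9% and 20.1%.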

How the data were processed

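Peak lists of 3 precipitates were used. Per the file headers, the authors called each list with MACS2 2.1.0.20140616 on 1 library, with the input from those cells as control. MACS2 extended the 51 bp tags to 250 bp, kept at most 1 tag at a position, scaled the deeper library down and kept peaks up to a q-value of 0.05. The submitters' processing notes name mm10 and Bowtie 0.12.8. Per the file headers, each deposited peak has a summit, a pileup signal, a −log10 p-value and q-value, and a fold enrichment, the ratio of (pileup + 1) to (background + 1). They describe peaks within a list only. The untagged list bears the run name JM8.N4, although its label says ES-D3, so the line of this control is uncertain.

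Gene ends, strands and promoters came from RefSeq GRCm38.p6, with 1-based coordinates. The background was recomputed from pileup and fold enrichment. Calls and motif searches, in Python 3.11.15 with scipy 1.17.1, were checked on simulated data. The 43 genes, the transport lists and the substrate groups were chosen with earlier results of these data known. Named at length were the 12 carrier genes with the highest fold enrichment within 10 kb and those with no summit, and the other carrier genes in short, except 1 that is not reported here by name. Genes named from the transport lists were chosen after their values were seen.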

Additional observations from a re-analysis of the deposited data

How the results depend on the processing

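Under most settings the count of mitochondrial carrier genes with a V5-KLF5 summit held, though some of these settings could not lower it. A count was called held where it stayed within a ratio of 1.5 of the main count, which is a wide limit. Within 1 kb the count of 35 went to between 24 and 38 genes under 6 of 7 alternatives. It was lowest with a −log10 q of at least 10 (24 genes, 55.8%, against 33.1% of all autosomal genes). The count of 38 within 10 kb went to between 29 and 43 under 7 of 8. The 29 are of the 32 genes with an annotated start (90.6%), and the 43 were counted within 50 kb. A −log10 q of at least 10 left 30 of the 43 genes within 10 kb (69.8%, against 53.2% of all). A fold enrichment of at least 10 left 8 and 9 genes. The median strongest fold enrichment of 7.15 (exact interval of the median 6.00 to 9.26) stayed between 6.59 and 8.54 under 4 of 5 alternatives. The other one put pileup in its place, another unit, and gave a median of 34.0 extended tags for carrier genes and 34.0 for all. The annotated-start setting covers only 32 genes, and the background without Olfr and Vmn genes was chosen after seeing the data. That background changes only the comparison genes, so the carrier counts could not move under it. Counting any base of the peak, summits inside the gene or a 50 kb window could only keep or raise the counts. No paired analysis was possible because each group is 1 library. An input coverage below the genome-wide background of 3.10 cannot be seen, and 31.9% of the carrier summits stood on it, against 37.2% of all autosomal peaks.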

Other observations

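The family has 4 further protein-coding genes on chromosome X, which the autosomal rule leaves out. Slc25a5, the ADP/ATP carrier gene of proliferating cells, had 4 summits within 10 kb, the strongest with a fold enrichment of 8.48, and its strongest within 1 kb had 5.61. Slc25a53 had 6.35 within 10 kb and 5.61 within 1 kb, and Slc25a14, a relative of the uncoupling proteins, had 1 summit with 4.39. Slc25a43 had none. Thus 3 of the 4 X-linked genes had a summit within 1 kb, and with 4 genes no share can be set beside that of the autosomal ones.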
